A study of Homo sapiens with 9 samples.

Results

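The Polo-like kinases PLK1, PLK2, PLK3 and PLK4 were examined in TC32 cells, an established line from an Ewing sarcoma, a tumour of bone and soft tissue driven by a fusion of EWSR1 with FLI1. The 4 genes were chosen by their symbols out of 58233 gene IDs, and all 4 were among the 17880 genes that passed the filter on low counts. Polyadenylated RNA was sequenced in 9 libraries, 3 for each of 3 groups. In the Wnt3a + SB-505124 group, cells received Wnt3a for 4 h and then SB-505124, a kinase inhibitor of type I receptors for TGF-β and activin (ALK5, ALK4 and ALK7), for the last 24 h, so that Wnt3a exposure lasted 28 h in all. In the Wnt3a group, cells received Wnt3a for the same 28 h and the solvent DMSO in place of the inhibitor. In the vehicle group, cells received PBS and then DMSO. All groups grew in RPMI 1640 with 10% fetal bovine serum, all came from this single line, and no group received SB-505124 without Wnt3a. Whether the libraries of a group are separate cultures is not stated in the labels, and each p-value therefore reflects the spread among these libraries, part or all of which may be technical.

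Polo-like kinases are serine/threonine kinases with a kinase domain and C-terminal polo-boxes that dock them on their substrates. PLK1 drives mitotic entry, centrosome maturation, spindle assembly and cytokinesis, and PLK4 starts the building of new centrioles. Both are usually high in dividing cells and are repressed through cell cycle gene promoter elements when cells leave the cycle. PLK2 and PLK3 were first described as early-response genes: PLK2 (also called SNK) is induced by serum, by DNA damage and by neuronal activity, and PLK3 (also called FNK or PRK) by mitogens, oxidative stress and DNA damage. The comparison below sets the mitotic pair, PLK1 and PLK4, beside the stress-induced pair, PLK2 and PLK3.

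All 4 kinases were higher in Wnt3a + SB-505124 cells than in Wnt3a cells or vehicle cells, and the stress-induced pair rose far more than the mitotic pair. PLK2 was 19.0-fold and PLK3 8.24-fold higher than in Wnt3a cells, against 2.67-fold for PLK1 and 1.43-fold for PLK4. All 4 were called higher over Wnt3a cells, as were 24.5% of all genes tested, and the call of PLK4 was lost in 2 of 20 alternatives. Wnt3a alone gave no call for any of the 4, in a comparison in which 0.419% of all genes tested were called. The 4 genes therefore made up a different mixture of transcripts in the 3 libraries with the inhibitor, in which PLK2 and PLK3 together took 28.8% to 38.7% of the summed TPM (the share of each gene among all transcripts of a library, corrected for length), against 10.4% to 14.6% in Wnt3a cells and 10.5% to 14.5% in vehicle cells.

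The promoters of the 4 genes are shown because, of the elements marked below, only the GC box was found in all 4. Other elements were searched for and are not reported here. Each line runs 5′ to 3′ on the gene's strand, from 250 bases before the start of transcription to 10 bases after it, as given by RefSeq on GRCh38.p14. Capitals mark the cell cycle gene homology region TTTGAA (CHR, through which repressor and activator complexes of the cell cycle act), the CCAAT box, the core TGACG of the cAMP response element, the TATA box TATANAA and the GC box GGGCGG, each searched on both strands. The regions are chr16:23678639-23678898 on the plus strand for PLK1, chr4:127880643-127880902 on the plus strand for PLK4, chr5:58460077-58460336 on the minus strand for PLK2 and chr1:44800127-44800386 on the plus strand for PLK3.
PLK1: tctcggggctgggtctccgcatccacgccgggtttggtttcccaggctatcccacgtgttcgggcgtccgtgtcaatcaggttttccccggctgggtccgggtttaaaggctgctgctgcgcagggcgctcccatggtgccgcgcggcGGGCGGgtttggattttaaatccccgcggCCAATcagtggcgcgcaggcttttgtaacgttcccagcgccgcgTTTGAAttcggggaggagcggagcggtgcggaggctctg
PLK4: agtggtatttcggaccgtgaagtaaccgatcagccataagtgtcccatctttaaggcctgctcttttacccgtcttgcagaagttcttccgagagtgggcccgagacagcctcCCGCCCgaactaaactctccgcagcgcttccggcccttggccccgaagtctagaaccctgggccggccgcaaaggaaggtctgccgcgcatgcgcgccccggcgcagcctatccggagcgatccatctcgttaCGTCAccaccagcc
PLK2: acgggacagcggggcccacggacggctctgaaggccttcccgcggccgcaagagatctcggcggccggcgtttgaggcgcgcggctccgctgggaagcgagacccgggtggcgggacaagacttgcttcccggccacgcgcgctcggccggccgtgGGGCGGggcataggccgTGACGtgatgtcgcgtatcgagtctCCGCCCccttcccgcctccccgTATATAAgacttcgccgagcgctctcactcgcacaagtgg
PLK3: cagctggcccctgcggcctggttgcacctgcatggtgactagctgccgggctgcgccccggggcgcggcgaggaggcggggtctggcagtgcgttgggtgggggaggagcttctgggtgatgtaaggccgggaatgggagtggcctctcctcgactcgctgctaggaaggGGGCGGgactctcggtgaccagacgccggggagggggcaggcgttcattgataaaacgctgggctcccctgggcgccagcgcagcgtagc

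In the promoter of PLK1, CCAAT stood at position -73 and TTTGAA at position -29, counted from the first transcribed base as 1. TTTGAA was also found for PLK4, on the opposite strand with its first base at position 39, in the stretch chr4:127880923-127880942 on the plus strand, shown here with the element in capitals.
PLK4, after the start: gggagattTTCAAAatggga

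Neither PLK2 nor PLK3 held TTTGAA in its window of 250 bases before and 50 bases after the start. Of 35116 RefSeq windows of that length, 15.2% held TTTGAA, 34.6% CCAAT, 24.6% TGACG and 9.1% TATANAA. PLK2 held TGACG at position -77 and TATANAA at position -30, and PLK4 held TGACG on the opposite strand at position -4. GGGCGG was in the windows of all 4 genes and in 45.0% of all windows. RefSeq gives PLK4 3 windows, and these statements and the printed sequence are for the first of them. In the third, CCAAT lay on the opposite strand at position -86. A match of letters describes the sequence and is not a measured binding site.

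In the gene tables PLK1 is ENSG00000166851.14, PLK2 ENSG00000145632.14, PLK3 ENSG00000173846.12 and PLK4 ENSG00000142731.10. In GENCODE release 29 on hg38, PLK1 lies on the plus strand at chr16:23677656-23690367, PLK4 on the plus strand at chr4:127880861-127899195, PLK2 on the minus strand at chr5:58453982-58460260 and PLK3 on the plus strand at chr1:44800225-44805990. Each value sums the annotated transcripts of its gene, of which there are 9 for PLK1, 11 for PLK4, 15 for PLK2 and 7 for PLK3. On the opposite strand, AC008870.3 shares 641 bases with PLK1 and was at 0.0912 CPM (counts per scaled library size) or less in every group mean, ERN2 shares 42 bases with PLK1, and TCTEX1D4 shares 78 bases with PLK3. Whether counting used the strand is not stated. PLK5, the remaining gene of the family, had 1, 1 and 0 expected counts in Wnt3a + SB-505124 libraries, 2, 2 and 0 in Wnt3a libraries and 0, 0 and 1 in vehicle libraries, and was not among the genes tested.

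The libraries held 28844348 to 42976799 expected counts. At least 1 count was found for 23196 to 23250 genes in Wnt3a + SB-505124 libraries, against 25128 to 26802 genes in the other 6, and the library scaling factors (trimmed mean of M values, TMM), which enter every CPM value, were 0.876 to 0.914 against 1.02 to 1.10. Mitochondrial genes took 3.85% to 5.12% of counts with the inhibitor and 4.04% to 4.87% without it. On the second principal component of all genes tested, with 14.7% of the variance, Wnt3a + SB-505124 replicate 1 lay at -66.8, apart from replicates 2 and 3 of its group at 26.8 and 24.4. Of the checks of treatment, AXIN2, a target and inhibitor of Wnt signalling, averaged 20.1 ± 2.82 CPM in Wnt3a cells and 3.29 ± 0.326 CPM in vehicle cells (SD, n = 3 each). With the inhibitor it averaged 31.1 ± 4.10 CPM, higher than in Wnt3a cells (log2 0.63, edgeR adjusted p = 0.00471), a call lost in 2 of 20 alternatives. Among 9 Wnt response genes tested, 2 were called higher and 3 lower in that comparison, beside 24.5% and 25.9% of all genes tested. PMEPA1, a TGF-β target, fell to 13.98 ± 0.545 CPM in Wnt3a + SB-505124 cells, against 48.3 ± 6.66 CPM in Wnt3a cells. SMAD7, another TGF-β target, was at 14.9 ± 2.96 against 18.04 ± 0.916 CPM and did not pass the test (edgeR adjusted p = 0.157), but it was called lower in 3 of 20 alternatives. The 11 Ewing sarcoma markers were detected in all groups, with summed levels of 5429 to 6808 CPM in Wnt3a + SB-505124, 6253 to 8381 in Wnt3a and 6830 to 8548 in vehicle libraries. CAV1 was the largest part of these sums, at 2932, 2853 and 3119 CPM in the means of those groups. With the inhibitor, 1 of the 11 was called higher and 5 lower over vehicle (edgeR, median log2 -0.60), beside 25.0% and 24.8% of all genes tested. Over Wnt3a, 1 was called higher and 4 lower, beside 24.5% and 25.9%. The 7 endothelial and 7 epithelial markers summed to 1.48 to 3.48 CPM in every library, and the 7 leukocyte markers to 5.31 to 8.94 CPM with the inhibitor, against 2.28 to 3.74 CPM in the other 6 libraries, with CD3E at 0 throughout, KRT19 at 0 with the inhibitor and TEK at 0 with the inhibitor and in vehicle cells. Fibroblast markers, which mesenchymal tumour cells also express, summed to 458 to 568 CPM with the inhibitor, 694 to 1157 in Wnt3a and 548 to 840 in vehicle libraries. Their part in the results below was not tested.

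PLK1, the kinase of mitotic entry and cytokinesis, was measured at 256, 385 and 404 CPM in Wnt3a + SB-505124 replicates 1 to 3, at 109, 125 and 158 CPM in Wnt3a replicates and at 153, 155 and 169 CPM in vehicle replicates. Every library with the inhibitor was above all 6 libraries without it, and replicate 1 was the lowest of the 3. Mean levels were 348 ± 80.3 CPM with the inhibitor, 131 ± 25.1 CPM in Wnt3a cells and 159 ± 8.61 CPM in vehicle cells (SD, n = 3 each). The log2 fold change of Wnt3a + SB-505124 over Wnt3a was 1.42 (SE 0.182, 95% interval 1.01 to 1.82, edgeR quasi-likelihood test with Benjamini-Hochberg adjustment, adjusted p = 0.000162). Without inhibitor replicate 1 it was 1.60. In bulk RNA, a larger share of cells in mitosis and more PLK1 RNA per cell cannot be told apart.

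PLK4, which recruits the centriole scaffold to the mother centriole, was measured at 66.5, 49.8 and 47.4 CPM in Wnt3a + SB-505124 replicates 1 to 3, at 38.3, 39.1 and 36.8 CPM in Wnt3a replicates and at 36.5, 36.5 and 34.9 CPM in vehicle replicates. The groups did not overlap, but in CPM inhibitor replicate 1 was the highest for PLK4, whereas it was the lowest for PLK1, PLK2 and PLK3. For PLK2 and PLK3 this order depended on the scale. In TPM, inhibitor replicate 1 was the highest for PLK3 (112 against 99.9 and 99.3). For PLK2 it lay between the others (27.5 against 30.3 and 24.7 TPM). The mean with the inhibitor was 54.6 ± 10.4 CPM, against 38.1 ± 1.18 CPM in Wnt3a cells and 35.97 ± 0.941 CPM in vehicle cells (SD, n = 3 each). The log2 fold change over Wnt3a was 0.52 (SE 0.126, 95% interval 0.24 to 0.80, edgeR adjusted p = 0.00644). It did not pass with library totals in place of TMM factors (log2 0.27, edgeR adjusted p = 0.122) or in limma-trend on log2(TPM + 1) (log2 0.33, adjusted p = 0.201). TPM divides by the estimated transcript length and takes no TMM factor. On that scale the PLK4 groups overlapped, with 39.5, 24.9 and 21.6 TPM in Wnt3a + SB-505124, 21.6, 24.5 and 19.5 TPM in Wnt3a and 22.7, 21.9 and 18.1 TPM in vehicle libraries. With an offset for effective length and TMM factors kept, PLK4 still passed over Wnt3a (log2 0.73, edgeR adjusted p = 0.015).

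PLK2, the early-response kinase of stressed and stimulated cells, was measured at 39.6, 50.2 and 40.4 CPM in Wnt3a + SB-505124 replicates 1 to 3, at 2.23, 0.982 and 3.64 CPM in Wnt3a replicates and at 2.78, 1.09 and 2.41 CPM in vehicle replicates. These are 1044 to 1650 expected counts per library with the inhibitor, against 44 to 160 in Wnt3a and 45 to 99 in vehicle libraries, so the low groups are the less precise ones. The lowest library with the inhibitor was above the highest without it. Mean levels were 43.4 ± 5.89, 2.28 ± 1.33 and 2.09 ± 0.888 CPM in Wnt3a + SB-505124, Wnt3a and vehicle cells (SD, n = 3 each). The log2 fold change over Wnt3a was 4.25 (SE 0.444, 95% interval 3.26 to 5.24, edgeR adjusted p = 4.95e-05). Of the 17880 genes tested, 26 (0.145%) had a larger log2 fold change.

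PLK3, the kinase induced by mitogens and by genotoxic or oxidative stress, was measured at 106, 113 and 114 CPM in Wnt3a + SB-505124 replicates 1 to 3, at 13.1, 11.5 and 15.9 CPM in Wnt3a replicates and at 19.0, 14.2 and 21.6 CPM in vehicle replicates. The groups with and without the inhibitor did not overlap, and the 3 libraries with it were the closest together of any member, with a coefficient of variation of 3.78%. Mean levels were 111 ± 4.21 CPM with the inhibitor, 13.5 ± 2.25 CPM in Wnt3a cells and 18.2 ± 3.75 CPM in vehicle cells (SD, n = 3 each). The log2 fold change over Wnt3a was 3.04 (SE 0.172, 95% interval 2.66 to 3.43, edgeR adjusted p = 2.87e-06), and 76 genes tested (0.425%) had a larger one. For PLK1 and PLK4 the corresponding numbers of genes were 708 (3.96%) and 4229 (23.7%).

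**Figure D1:**
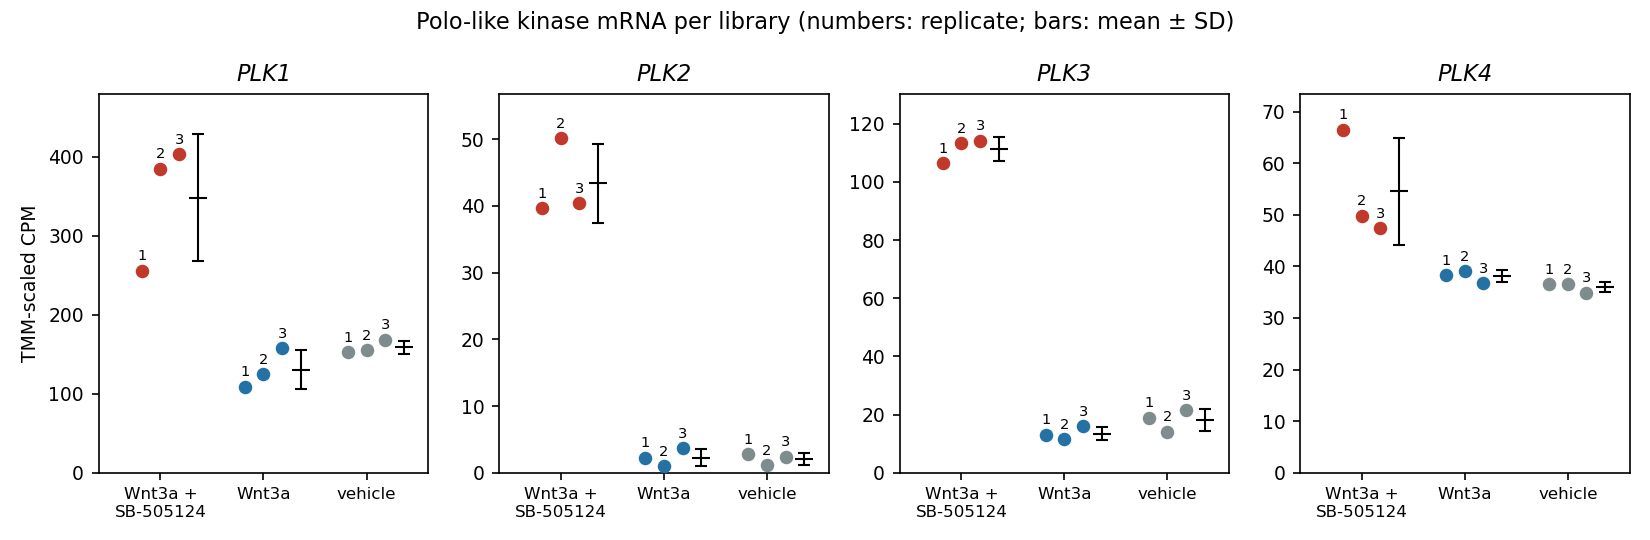
TMM-scaled CPM of PLK1, PLK2, PLK3 and PLK4 (vertical axes, starting at 0) in each library of the Wnt3a + SB-505124, Wnt3a and vehicle groups. Points are libraries with their replicate number, and the bar beside them is the mean ± SD of 3; in every panel the 3 libraries with the inhibitor lie above the other 6, and replicate 1 of that group is the lowest for PLK1 (256 CPM) but the highest for PLK4 (66.5 CPM).

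All 4 members were past the threshold of 0.05 as higher in Wnt3a + SB-505124 against Wnt3a, in a comparison in which 24.5% of all genes tested were called higher, 25.9% lower and 50.4% in either direction. Non-overlap of the groups with the inhibitor above was found for all 4 members and for 27.8% of all genes tested. A call of higher is thus common here, and the sizes are the rarer part. At least 2-fold higher and called were 3 members (PLK1, PLK2 and PLK3) and 7.32% of all genes tested. With library totals alone, the calls among all genes were 2828 higher and 6425 lower in place of 4379 higher and 4634 lower, and the median of all genes lay at -0.31 in place of -0.06 on the log2 scale. PLK1, PLK2 and PLK3 remained called as higher under that scaling and under the other 19 alternatives.

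Wnt3a + SB-505124 against vehicle shares the inhibitor libraries with the comparison above, so its values stand beside those and are not a separate repeat. The log2 fold changes over vehicle were 1.13 for PLK1 (SE 0.181, edgeR adjusted p = 0.000592), 0.60 for PLK4 (SE 0.126, edgeR adjusted p = 0.00297), 4.38 for PLK2 (SE 0.450, edgeR adjusted p = 4.18e-05) and 2.61 for PLK3 (SE 0.169, edgeR adjusted p = 3.73e-06). All 4 were called higher, as were 25.0% of all genes tested, beside 24.8% called lower and 49.7% called in either direction. PLK2 was 20.8-fold and PLK3 6.11-fold higher than in vehicle cells, against 2.19-fold for PLK1 and 1.52-fold for PLK4. In both comparisons the 95% intervals of PLK2 and PLK3 lay above those of PLK1 and PLK4. The PLK4 call was lost in limma-trend on log2(TPM + 1), at a log2 difference of 0.40 (adjusted p = 0.14). With library totals alone, all genes split into 3061 higher and 6036 lower in place of 4462 and 4433.

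Wnt3a against vehicle gave 0 calls among the 4 members in edgeR and in all 20 alternatives, among them DESeq2 and limma-voom, in a comparison in which 0.419% of all genes tested were called. At an unadjusted edgeR p under 0.05 there was 1 member, PLK3, with a log2 fold change of -0.43 (95% interval -0.80 to -0.07, edgeR adjusted p = 0.53). Of all genes tested, 7.62% passed that unadjusted level. PLK1 had a log2 fold change of -0.28 (95% interval -0.68 to 0.12, edgeR adjusted p = 0.813). For PLK4 it was 0.08 (95% interval -0.20 to 0.36, edgeR adjusted p = 0.94), although its 3 Wnt3a libraries, at 36.8 to 39.1 CPM, all lay above its 3 vehicle libraries, at 34.9 to 36.5 CPM. Such non-overlap with Wnt3a above was found for 9.34% of all genes tested, and the PLK4 groups overlapped in TPM. PLK2 had a log2 fold change of 0.13 with a 95% interval of -0.83 to 1.10 (edgeR adjusted p = 0.975), an interval wide enough to hold the change seen for PLK4 with the inhibitor.

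**Figure D2:**
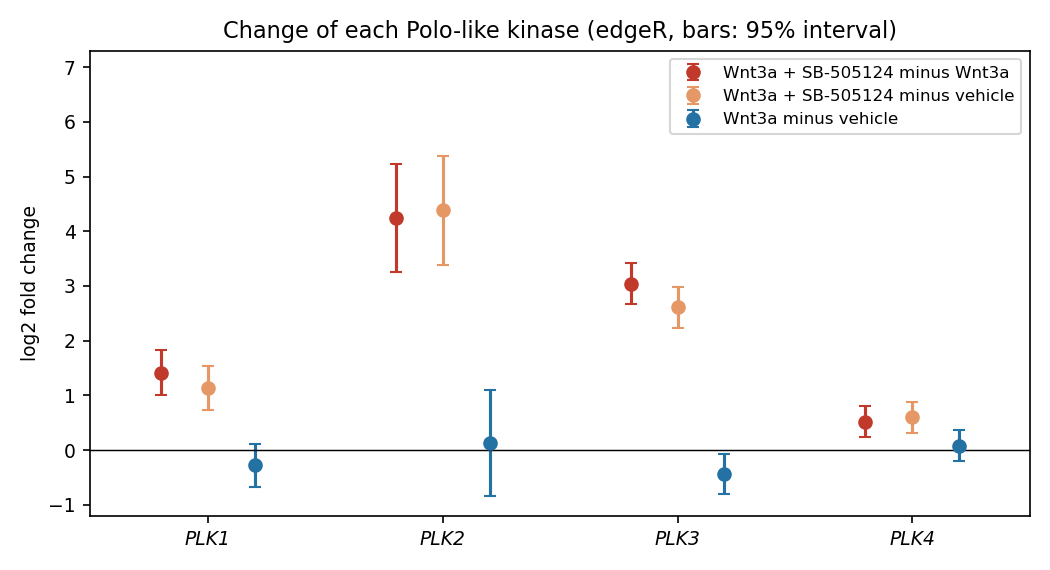
Log2 fold change (vertical axis) of each Polo-like kinase in the 3 comparisons, from edgeR; points are estimates and bars are 95% intervals. For PLK2 (4.25 and 4.38) and PLK3 (3.04 and 2.61) both comparisons with the inhibitor lie well above those of PLK1 (1.42 and 1.13) and PLK4 (0.52 and 0.60), and the Wnt3a minus vehicle estimates lie between -0.43 and 0.13.

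Levels of different genes are compared only per length, in TPM. In Wnt3a + SB-505124 cells the order was PLK1 at 249.9 ± 58.99 TPM, PLK3 at 104 ± 7.18, PLK4 at 28.6 ± 9.52 and PLK2 at 27.5 ± 2.84 TPM (SD, n = 3 each), and the libraries of PLK4 and PLK2 overlapped. In Wnt3a cells PLK1 was at 116 ± 26.3 TPM, PLK4 at 21.9 ± 2.52, PLK3 at 16.9 ± 1.30 and PLK2 at 1.77 ± 1.16 TPM, with no overlap between neighbours. In vehicle cells PLK1 was at 131 ± 11.4 TPM, PLK4 at 20.9 ± 2.45, PLK3 at 20.8 ± 4.50 and PLK2 at 2.06 ± 0.742 TPM, and PLK4 and PLK3 overlapped. PLK1 was the highest of the 4 in every library. PLK3 stood above PLK4 in every inhibitor library, and PLK2 stood above PLK4 in inhibitor replicates 2 and 3 and below it in the other 7 libraries.

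Expressed as ranks, PLK2 was above 73.8% of the genes tested in Wnt3a + SB-505124 cells, 25.7% in Wnt3a cells and 28.97% in vehicle cells by mean TPM. PLK3 was above 92.4%, 61.4% and 67.6% of genes in the same 3 groups. PLK4 was above 74.5%, 67.2% and 67.7%, and PLK1, among the abundant genes in every group, above 97.2%, 93.1% and 93.9%.

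The summed TPM of the 4 kinases was 361, 438 and 430 in Wnt3a + SB-505124 replicates 1 to 3, 132, 154 and 184 in Wnt3a replicates and 174, 161 and 188 in vehicle replicates. PLK1 remained the largest part in every library, at 60.4% ± 8.70 with the inhibitor, 73.7% ± 4.56 in Wnt3a cells and 74.9% ± 2.15 in vehicle cells (SD, n = 3 each). PLK3 took 25.6% ± 4.69, 10.95% ± 1.98 and 11.8% ± 1.82 of the sum in those groups, and PLK2 6.76% ± 0.954, 1.11% ± 0.645 and 1.18% ± 0.394. PLK4 took 7.21% ± 3.25, 14.3% ± 3.18 and 12.1% ± 2.14, with 10.9% in inhibitor replicate 1 against 5.67% and 5.02% in replicates 2 and 3.

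Ratios between the pairs parted the inhibitor libraries from the other 6. There was 6.61 to 11.5 times as much PLK1 as PLK2 TPM in Wnt3a + SB-505124 libraries, against 49.5 to 196 times in Wnt3a and 45.6 to 94.5 times in vehicle libraries. For PLK1 over PLK3 the ratios were 1.62 to 2.87 with the inhibitor, 5.22 to 8.11 in Wnt3a and 5.60 to 7.80 in vehicle libraries. For PLK4 over PLK3 they were 0.217 to 0.352, 1.10 to 1.59 and 0.753 to 1.40, so that PLK3 exceeded PLK4 in every inhibitor library and PLK4 exceeded PLK3 in every Wnt3a library. For PLK4 over PLK2 they were 0.819 to 1.44 with the inhibitor, 6.75 to 42.3 in Wnt3a and 8.20 to 16.95 in vehicle libraries. Within the mitotic pair the ratio of PLK1 to PLK4 overlapped between groups, at 4.61 to 13.2 with the inhibitor, 4.24 to 7.38 in Wnt3a and 5.56 to 7.92 in vehicle libraries. Within the stress-induced pair the ratio of PLK3 to PLK2 was 3.29 to 4.08 with the inhibitor, below the 6.15 to 26.6 of Wnt3a and the 8.15 to 12.1 of vehicle libraries.

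**Figure D3:**
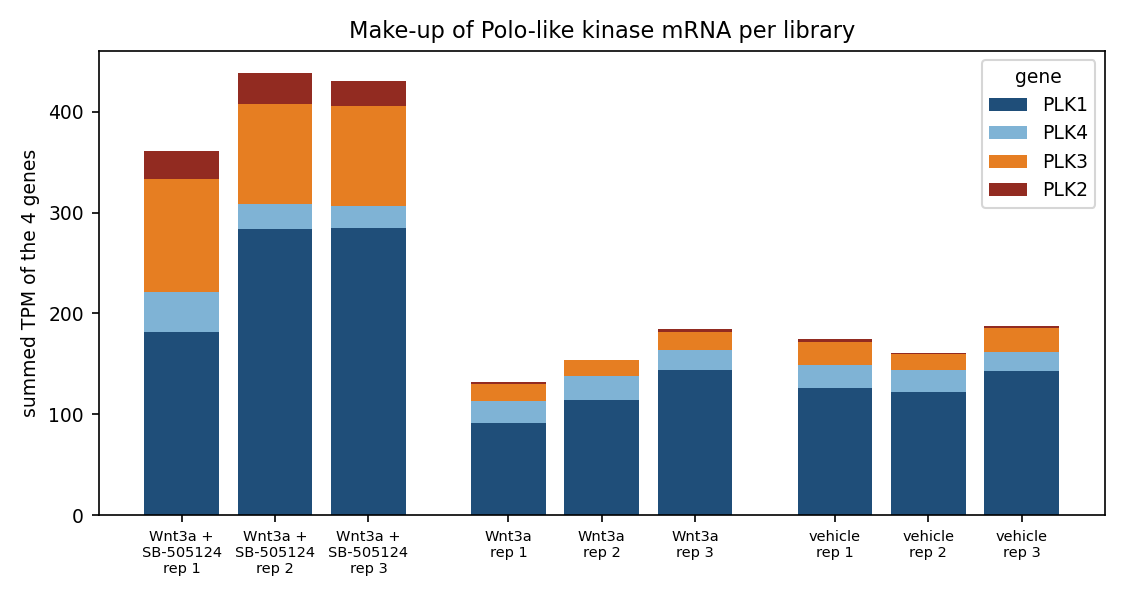
Summed TPM of the 4 Polo-like kinases (vertical axis, starting at 0) in each of the 9 libraries, stacked by gene. The sum is 361 to 438 TPM in Wnt3a + SB-505124 libraries, 132 to 184 TPM in Wnt3a and 161 to 188 TPM in vehicle libraries, and the PLK3 and PLK2 segments take 28.8% to 38.7% of it with the inhibitor.

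The effective length of a gene in these tables is the length of its transcripts weighted by their estimated abundance, and it moves when the estimated mix of transcripts moves. For PLK1 it was 1597 to 1718 bases in Wnt3a + SB-505124, 1618 to 1784 in Wnt3a and 1708 to 1806 in vehicle libraries. PLK4 had 1977 bases in inhibitor replicate 1 and 2355 and 2662 in replicates 2 and 3, against 2508 to 2782 in Wnt3a and 2307 to 2800 in vehicle libraries, so the replicate with the highest PLK4 level also had the shortest estimated transcripts. PLK2 had 1691 to 1985 bases with the inhibitor, 1806 to 2664 in Wnt3a and 1199 to 1640 in vehicle libraries, where few reads support the estimate. PLK3 varied from 1115 to 1393 bases over all 9 libraries with the groups overlapping.

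Genes that act with PLK1 in mitosis moved mostly up. Of 35 mitotic partners, 23 rose, 6 fell and 6 did not pass in Wnt3a + SB-505124 against Wnt3a (edgeR), with a median log2 fold change of 0.53 beside -0.06 over all genes tested. Calls over all genes tested were 24.5% higher and 25.9% lower. The count of rises was 17 with library totals alone and 14 in limma-trend on log2(TPM + 1). CDC20, which activates the anaphase-promoting complex, rose to 399 ± 7.59 CPM in Wnt3a + SB-505124 cells, against 189.8 ± 17.97 CPM in Wnt3a cells (log2 1.07, SE 0.0951, edgeR adjusted p = 1.99e-05). RACGAP1, the centralspindlin subunit that PLK1 phosphorylates to start cytokinesis, averaged 417 ± 32.4 against 213 ± 12.1 CPM (log2 0.97, edgeR adjusted p = 2.25e-05). CCNA2, the cyclin of S phase and G2, averaged 175 ± 22.1 against 86.3 ± 6.31 CPM (log2 1.02, edgeR adjusted p = 4.85e-05).

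AURKA, which phosphorylates the activation loop of PLK1, was at 112 ± 5.41 CPM in Wnt3a + SB-505124 cells and 117 ± 26.0 CPM in Wnt3a cells and did not pass (log2 -0.06, edgeR adjusted p = 0.791), nor over vehicle (log2 0.36, edgeR adjusted p = 0.108). TPX2, a spindle protein that activates AURKA, rose to 529 ± 97.7 CPM in Wnt3a + SB-505124 cells, against 248 ± 45.6 CPM in Wnt3a cells (log2 1.09, edgeR adjusted p = 0.000446). BORA, the cofactor that opens PLK1 to AURKA, was at 9.61 ± 1.19 against 13.9 ± 1.93 CPM (log2 -0.53, edgeR adjusted p = 0.0238), a call lost in 5 of 20 alternatives. NINL, a centrosomal protein released from centrosomes by PLK1, fell to 9.74 ± 4.04 CPM, against 34.7 ± 8.53 CPM in Wnt3a cells (log2 -1.84, edgeR adjusted p = 0.000526). BUB1B, a spindle checkpoint kinase and PLK1 substrate, fell to 103 ± 5.77, against 144 ± 3.92 CPM (log2 -0.48, edgeR adjusted p = 0.000937), and ERCC6L, the helicase of ultrafine anaphase bridges, to 8.77 ± 1.31, against 13.7 ± 1.97 CPM (log2 -0.65, edgeR adjusted p = 0.00627). PLK1 had a larger log2 fold change over Wnt3a than each of the 35 partners, and PLK4 a smaller one than 18 of them. Over vehicle, TTK, a spindle checkpoint kinase, had a larger one (1.23) than PLK1 (1.13), and 15 partners a larger one than PLK4. MKI67, a general marker of proliferation, was at 343 ± 58.8 CPM in Wnt3a + SB-505124 and 374 ± 49.0 CPM in Wnt3a cells and did not pass (log2 -0.12, edgeR adjusted p = 0.466), but it was called lower with library totals alone (log2 -0.38, edgeR adjusted p = 0.0245).

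Of 29 centriole genes around PLK4, 13 rose, 7 fell and 9 did not pass in Wnt3a + SB-505124 against Wnt3a (edgeR), with a median log2 fold change of 0.19. Of all genes tested, 24.5% were called higher and 25.9% lower, with a median of -0.06. The balance depended on the scaling: with library totals alone 8 rose and 11 fell, and in limma-trend on log2(TPM + 1) 7 rose and 11 fell. CEP120, needed for centriole elongation, averaged 65.6 ± 8.10 CPM in Wnt3a + SB-505124 against 22.2 ± 1.96 CPM in Wnt3a cells (log2 1.56, edgeR adjusted p = 8.5e-06), POC1B, a centriole stability protein, 40.4 ± 3.42 against 14.7 ± 1.55 CPM (log2 1.45, edgeR adjusted p = 2.34e-05) and CEP57, a pericentriolar protein, 142 ± 10.6 against 59.2 ± 5.41 CPM (log2 1.26, edgeR adjusted p = 3.44e-05). Of the scaffolds that bring PLK4 to the centriole, CEP192 fell to 20.3 ± 2.38 CPM, against 50.4 ± 0.878 CPM in Wnt3a cells (log2 -1.31, edgeR adjusted p = 2.69e-05), and CEP152 was at 15.1 ± 1.71 against 20.5 ± 3.45 CPM (log2 -0.45, edgeR adjusted p = 0.0451), a call lost in 8 of 20 alternatives and not made over vehicle (log2 -0.16, edgeR adjusted p = 0.455). STIL, the partner that activates PLK4, was at 49.0 ± 4.46 against 38.5 ± 3.59 CPM (log2 0.35, edgeR adjusted p = 0.031), a call also lost in 8 of 20. SASS6, which forms the cartwheel of the new centriole, was at 7.53 ± 1.88 against 9.87 ± 0.371 CPM and did not pass (log2 -0.39, edgeR adjusted p = 0.0968), but it was called lower in 3 of 20 alternatives.

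Genes of the G1/S transition moved the other way from the mitotic list. Of 30, 3 rose, 18 fell and 9 did not pass in Wnt3a + SB-505124 against Wnt3a (edgeR), with a median log2 fold change of -0.62. Beside this, 24.5% of all genes tested were called higher and 25.9% lower. CCNE2 and CCNE1, the cyclins E that start S phase, fell to 2.95 ± 1.29 and 0.668 ± 0.263 CPM, against 37.3 ± 5.64 and 6.21 ± 0.822 CPM in Wnt3a cells (log2 -3.64 and -3.19, edgeR adjusted p = 9.45e-06 and 2.14e-05). CDC25A, the phosphatase that opens CDK2, fell to 15.7 ± 2.41, against 40.8 ± 2.75 CPM (log2 -1.37, edgeR adjusted p = 2.14e-05). CDT1, which licenses replication origins, rose to 135 ± 44.3, against 54.8 ± 8.33 CPM (log2 1.30, edgeR adjusted p = 0.000831), and ORC1, the origin subunit, to 63.1 ± 12.8, against 35.4 ± 3.37 CPM (log2 0.84, edgeR adjusted p = 0.00127).

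Genes known to be induced by DNA damage, as PLK2 and PLK3 are, moved up. Of 28, 23 rose, 0 fell and 5 did not pass in Wnt3a + SB-505124 against Wnt3a (edgeR), with a median log2 fold change of 1.38. Over all genes tested, 24.5% were called higher and 25.9% lower. The number of falls was also 0 at an unadjusted edgeR p under 0.05 and in DESeq2 and limma-voom. AEN, a nuclease of apoptosis, averaged 263 ± 6.50 CPM against 55.5 ± 5.29 CPM in Wnt3a cells (log2 2.24, edgeR adjusted p = 8.6e-07), DDB2, a nucleotide excision repair factor, 183 ± 9.31 against 49.3 ± 3.88 CPM (log2 1.89, edgeR adjusted p = 2.83e-06) and SESN1, a stress-induced inhibitor of mTORC1 signalling, 111 ± 22.2 against 19.0 ± 0.858 CPM (log2 2.55, edgeR adjusted p = 2.88e-06). CDKN1A, the CDK inhibitor p21, rose to 569 ± 183 CPM, against 67.9 ± 21.4 CPM in Wnt3a cells and 81.5 ± 22.3 CPM in vehicle cells (log2 3.07 over Wnt3a, edgeR adjusted p = 4.75e-05). Only GDF15, a stress cytokine, had a larger log2 fold change in this list than PLK2, and GDF15, BBC3, GADD45A and CDKN1A had larger ones than PLK3. PLK1 was exceeded by 13 of the 28 and PLK4 by 22.

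Immediate-early genes, which respond to growth factors and stress without new protein synthesis, moved up as well. Of 33, 24 rose, 1 fell and 8 did not pass in Wnt3a + SB-505124 against Wnt3a (edgeR), with a median log2 fold change of 1.27. The shares called among all genes tested were 24.5% higher and 25.9% lower. PPP1R15A, the stress-induced regulatory subunit that dephosphorylates eIF2α, averaged 448 ± 44.6 CPM against 37.7 ± 3.31 CPM in Wnt3a cells (log2 3.57, edgeR adjusted p = 3.82e-07), and DUSP1, a MAP kinase phosphatase, 271 ± 49.99 against 22.7 ± 1.75 CPM (log2 3.58, edgeR adjusted p = 4.66e-07). CCN1, a secreted matricellular protein, averaged 1612 ± 163 against 167 ± 61.2 CPM (log2 3.27, edgeR adjusted p = 8.2e-06). RHOB, a small GTPase, was the gene that fell, to 99.8 ± 24.8, against 182 ± 27.3 CPM (log2 -0.87, edgeR adjusted p = 0.00297). PLK2 had a larger log2 fold change than all 33, and 5 had a larger one than PLK3 (ATF3, DUSP1, PPP1R15A, CCN1 and FOSL1).

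**Figure D4:**
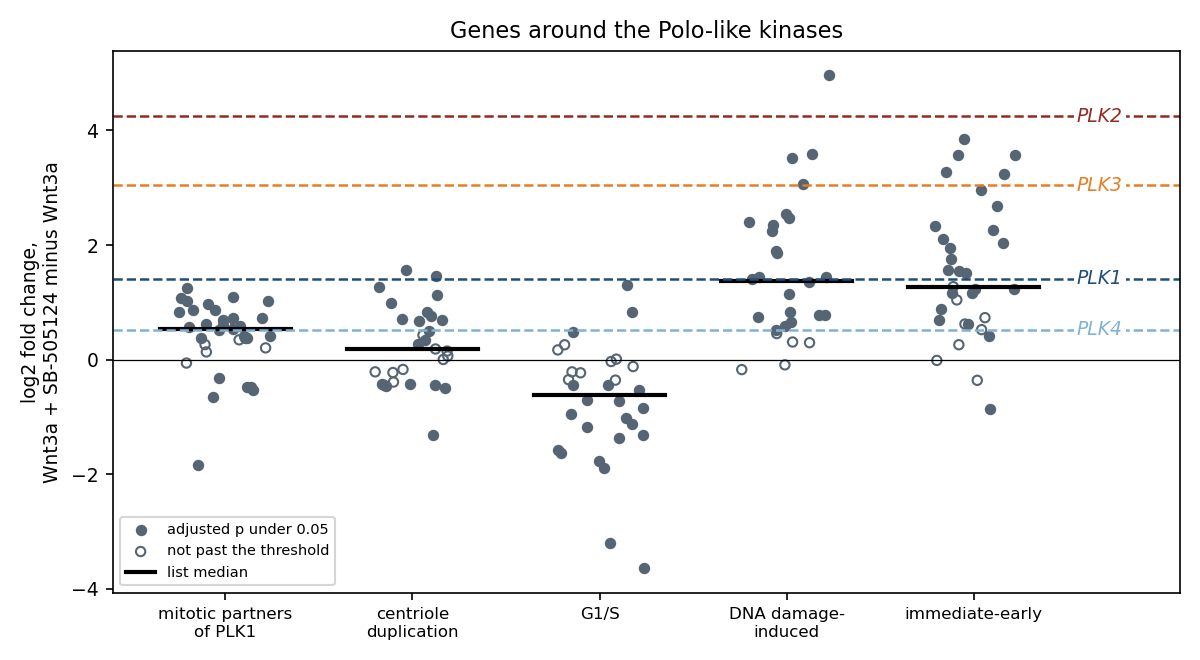
Log2 fold change of Wnt3a + SB-505124 minus Wnt3a (vertical axis) for the tested genes of 5 lists; filled points passed the adjusted p of 0.05, open points did not, and black bars are list medians. Dashed lines mark the 4 Polo-like kinases: PLK2 (4.25) and PLK3 (3.04) lie among or above the highest DNA damage-induced and immediate-early genes, and PLK1 (1.42) lies above all 35 mitotic partners in this comparison.

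Of 11 genes tested that act with PLK2 and PLK3, 5 rose, 3 fell and 3 did not pass in Wnt3a + SB-505124 against Wnt3a (edgeR). Among all genes tested, 24.5% were called higher and 25.9% lower. CHEK2, a checkpoint kinase that binds PLK3, rose to 32.7 ± 2.48 CPM in Wnt3a + SB-505124 cells, against 22.9 ± 1.17 CPM in Wnt3a cells (log2 0.51, edgeR adjusted p = 0.00171), a call lost in 1 of 20 alternatives. SIPA1L1, the synaptic protein SPAR that PLK2 marks for degradation in rat neurons, fell to 171 ± 17.3, against 267 ± 25.6 CPM (log2 -0.65, edgeR adjusted p = 0.000913).

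Against vehicle, with the same inhibitor libraries, 21 of 35 mitotic partners rose and 6 fell, 14 of 29 centriole genes rose and 3 fell, 3 of 30 G1/S genes rose and 19 fell, 22 of 28 DNA damage-induced genes rose and 0 fell, and 20 of 33 immediate-early genes rose and 1 fell (edgeR). The shares over all genes tested were 25.0% higher and 24.8% lower. In Wnt3a against vehicle, 0 genes of these 5 lists were called in edgeR, DESeq2 or limma-voom. With 0.419% of all genes tested called in edgeR, 0 calls say little about lists of this size. At an unadjusted edgeR p under 0.05, 1 mitotic partner, 4 centriole genes and 3 immediate-early genes were higher, and 2 DNA damage-induced genes and 1 immediate-early gene were lower. That level was passed by 7.62% of all genes tested, in either direction.

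The inhibitor library that stood apart from its group divided the kinases too in CPM, although for PLK2 and PLK3 the order differed in TPM. Inhibitor replicate 1 differed from the mean of replicates 2 and 3 by -0.62 for PLK1, -0.18 for PLK2, -0.10 for PLK3 and 0.45 for PLK4 on the log2 CPM scale. It was below both other replicates for 24 of 35 mitotic partners, 29 of 30 G1/S genes, 19 of 28 DNA damage-induced genes and 21 of 33 immediate-early genes, beside 41.7% of all genes tested. For centriole genes it was below both for 12 of 29 and above both for 11, beside 41.7% and 41.6% of all genes tested. Without this library the log2 fold changes over Wnt3a were 1.60 for PLK1, 4.31 for PLK2, 3.08 for PLK3 and 0.36 for PLK4, and 26 mitotic partners, in place of 23, were called higher.

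Genes with the most similar pattern to each kinase were found by the root mean square difference of centred log2 CPM over the 9 libraries, among 13141 genes with a mean of at least 1 CPM and a symbol that is not a clone name. Nearest to PLK1 were PML (0.103), YPEL3 (0.116), WBP2 (0.118), UBE2C (0.120) and NFYC (0.127), of which UBE2C encodes the ubiquitin-conjugating enzyme of the anaphase-promoting complex and NFYC a subunit of the factor that binds CCAAT. Nearest to PLK4, at smaller differences since its values varied less, were ZCCHC4 (0.0481), TRIM5 (0.0548), PTPN12 (0.0603), PBX2 (0.0645) and RPL17 (0.0649). Nearest to PLK2 were the stress transcription factor gene ATF3 (0.320), the metallothionein genes MT1E (0.410) and MT2A (0.444), SNAPC1 (0.532) and DUSP5 (0.541). Of the 5 nearest to PLK3, 4 are reported here, namely DEPTOR (0.160), which encodes an inhibitor of mTOR, the glucose transporter gene SLC2A3 (0.179), the autophagy gene DRAM1 (0.199) and CCDC28A (0.240). Metallothionein genes resemble each other, so reads shared between copies make those values uncertain. Among the kinases themselves the smallest difference was that of PLK1 and PLK4 (0.496), followed by PLK1 and PLK3 (0.778) and by PLK2 and PLK3 (0.864), and the largest was that of PLK2 and PLK4 (1.92).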

How the data were processed

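Gene tables of 9 TC32 libraries were used. Per the submitters' processing notes, the authors' processing used RSEM 1.2.31, STAR 2.5.2a, CASAVA 1.8.2, Trimmomatic 0.36 and genome build hg38. The sources used here give neither the annotation release nor the strand setting. Per the file headers, the deposited tables hold an expected count, TPM, FPKM and an effective length per gene. FPKM was not analysed here. Second entries of 45 pseudoautosomal genes were summed with the first. Expected counts were rounded, filtered with filterByExpr and scaled with TMM factors. One quasi-likelihood model (edgeR 4.0.16, R 4.3.3) was fitted to all 9 libraries and 17880 genes, with Benjamini-Hochberg adjustment over them and 2-sided tests at 0.05. The standard error is the log2 fold change divided by the square root of F, and intervals use the moderated degrees of freedom. The script was tested on simulated data. Alternatives were RLE factors or library totals, other filters, DESeq2 1.42.0, limma 3.58.1, unrounded counts, a length offset, 2 groups only, a replicate block and each library left out; those for lists and single genes were chosen after seeing the data. Members and gene lists were chosen with earlier results of these data known. Named list genes are up to 3 per direction with the smallest adjusted p; AURKA, BORA, STIL, SASS6, CEP152 and the genes that exceeded a kinase were picked for the text with their values known. The 5 described lists share no gene. Some genes of the naming rule are not reported here.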

Additional observations from a re-analysis of the deposited data

How the results depend on the processing

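Of 240 values of the 12 kinase results over 20 alternatives, 232 kept their direction and their side of the threshold. PLK4 no longer passed in Wnt3a + SB-505124 against Wnt3a with library totals alone (log2 0.27) and in limma-trend on log2(TPM + 1) (log2 0.33), and against vehicle in limma-trend (log2 0.40). In Wnt3a against vehicle, never called, PLK2 turned to -0.21 in limma-trend and -0.31 with the length offset, and PLK4 to -0.027 with that offset; with each library left out PLK2 ran from -0.39 to 0.50, negative without vehicle replicate 2 (-0.18) and without Wnt3a replicate 3 (-0.39). Calls in Wnt3a against vehicle, 75, became 259 with all genes of at least 1 count and 299 in DESeq2, and 20 to 140 with each library left out. The cause was not tested. Whether same-numbered libraries share more than a number is not stated in the labels. Between groups, their deviations from the group means correlated at -0.18 to 0.42, and those of differently numbered libraries at -0.45 to 0.31. With the replicate number as a replicate block there were 9166, 9039 and 79 calls in place of 9013, 8895 and 75, and no kinase call changed. G1/S rises became 5 without inhibitor replicate 1, and centriole falls ran from 3 to 9 with each library left out. Of 69 single genes, 50 kept direction and call throughout. PLK2 had 44 to 160 counts per library without the inhibitor and a coefficient of variation of 58.2% in Wnt3a libraries, and its log2 fold change over Wnt3a ran from 3.88 to 4.77 with each library left out.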

Other observations

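Among the 6 libraries without the inhibitor, the order of PLK2 and PLK3 levels crossed the treatment labels. The 3 lowest libraries for both genes were Wnt3a replicate 1 (2.23 CPM of PLK2 and 13.1 CPM of PLK3), Wnt3a replicate 2 (0.982 and 11.5 CPM) and vehicle replicate 2 (1.09 and 14.2 CPM). The other 3 were Wnt3a replicate 3 (3.64 and 15.9 CPM), vehicle replicate 1 (2.78 and 19.0 CPM) and vehicle replicate 3 (2.41 and 21.6 CPM). On the second principal component of all genes the first 3 lay at -30.6, -24.2 and -8.20, and the other 3 at 24.9, 22.6 and 30.97. The labels name no batch, and these values are given as a description with no test.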
